A study of Mus musculus with 12 samples.

Results

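Cone phototransduction was followed through 10 transcripts in mouse retina: the opsins Opn1sw and Opn1mw, the transducin subunits Gnat2, Gnb3 and Gngt2, the phosphodiesterase subunits Pde6c and Pde6h, the channel subunits Cnga3 and Cngb3, and cone arrestin Arr3. They were taken by symbol from the 56748 genes of the deposited table, and all 10 were found, each in 1 row. The question was how far transcripts made by cones remain in RNA drawn from rod ribosomes, and whether they differ when rods lack Shp2. The tissue came from mice of 2 weeks of age. In every group, a Cre active in rods (i75-Rod-Cre) switched on an HA tag on the ribosomal protein Rpl22 (RiboTag), so that rod ribosomes could be drawn out with an antibody to the tag, a method called TRAP. Control mice were heterozygous for the floxed Shp2 gene (RiboTag with Shp2 fl/+, here Het), so their rods also carry 1 allele open to Cre, and KO mice had both alleles floxed (Shp2 fl/fl). Each genotype gave 3 rod TRAP libraries and 3 libraries of whole retina, which contains the cones. Nothing states whether the replicates came from separate animals, so the p-values measure the spread between these libraries, which may be partly technical.

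In a cone, light activates an opsin, which passes the signal to the trimeric G protein transducin. Transducin lifts the inhibitory subunit from the phosphodiesterase PDE6, cyclic GMP falls, and the cyclic nucleotide-gated channel closes. Rods run the same cascade with their own copy of nearly every part. The rod counterparts used here are Gnat1, Gnb1 and Gngt1 for transducin, Pde6a, Pde6b and Pde6g for PDE6, Cnga1 and Cngb1 for the channel and Sag for arrestin. Cones are a small minority of mouse photoreceptors, and many mouse cones contain both opsins.

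The rod and cone copies are related in sequence, and the stretches they share were measured because a read could be assigned to the wrong copy only where both are alike. Over 9 pairs the longest identical run of coding sequence was 13 to 24 bases. The longest runs of transducin α and of both kinds of PDE6 subunit are printed with 12 bases on either side, 5′ to 3′ on the coding strand, and with the shared run in capitals. They are coding exon sequence from GENCODE release M21 on GRCm38, and the regions given include an intron where 2 exons are named. Gnat2 lies at chr3:108098396-108099989 (+ strand, exons 7 and 8) and Gnat1 at chr9:107676348-107676587 (- strand, exons 6 and 7). Pde6c lies at chr19:38141475-38150601 (+ strand, exons 4 and 5) and Pde6b at chr5:108419578-108419711 (+ strand, exons 4 and 5). Pde6h lies at chr6:136959345-136959385 (+ strand, exon 2) and Pde6g at chr11:120450476-120450516 (- strand, exon 2).
Gnat2: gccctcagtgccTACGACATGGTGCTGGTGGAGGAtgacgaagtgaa
Gnat1: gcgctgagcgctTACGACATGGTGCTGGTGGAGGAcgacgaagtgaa
Pde6c: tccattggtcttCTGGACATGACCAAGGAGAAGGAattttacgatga
Pde6b: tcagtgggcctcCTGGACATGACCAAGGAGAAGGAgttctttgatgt
Pde6h: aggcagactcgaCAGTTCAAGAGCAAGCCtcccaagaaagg
Pde6g: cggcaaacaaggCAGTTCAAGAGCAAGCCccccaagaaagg

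The shared run was 23 bases in Gnat2 and Gnat1, 23 in Pde6c and Pde6b, and 17 in Pde6h and Pde6g, so in these 9 pairs no coding stretch of 50 bases was common to a cone gene and its rod counterpart. Against all annotated transcripts on both strands, 6 of the 10 genes shared 0% of their 50-base stretches with another gene. Opn1sw shared 14.53% of them with Calu, a gene that overlaps it, Gnat2 shared 1.85%, Pde6h 0.65% and Cnga3 0.14%. The strand of counting is not given in the sources used here, so reads of Opn1sw and Calu in the overlap cannot be told apart. Calu itself did not follow Opn1sw between fractions: its log2 fold change in Het rod TRAP against Het retina was 0.18 ± 0.15 (SE, adjusted p = 0.32). Its values in Het rod TRAP were 2720, 2600 and 2562, beside 1657, 2290 and 2730 for Opn1sw. How far reads of the overlap enter the Opn1sw values and ratios was not tested.

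The libraries of a fraction had nearly equal totals, from 14525527 to 14527992 in retina and from 16263948 to 16265259 in rod TRAP, because the values were scaled before deposit. The spacing of the low values gave estimated depths of 9980000 to 25270000 reads per library, at which 3 reads make up 1.2e-05% to 3e-05% of a library. The cone gene with the fewest estimated reads in any library was Cnga3, with 79 in Het rod TRAP replicate 3 and a counting error of 11%, and the lowest values of Opn1sw and Opn1mw stood for 1375 and 563 reads. Ptpn11, the gene of Shp2, had values of 2511, 2439 and 2431 in Het rod TRAP and 1735, 2139 and 1971 in KO rod TRAP. The KO libraries were all lower, by a log2 fold change of -0.28 ± 0.09 (adjusted p = 0.041), short of the 0.5 asked of a call, and reads outside the floxed exon also count here. The 11 lens markers made up 0.00104% to 5.51% of the retina libraries and at most 0.0883% of the rod TRAP libraries.

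All 10 cone transcripts were lower in Het rod TRAP than in Het retina, but by a modest amount: their median level was 48.1% of retina (log2 fold change -1.05), with a range from Pde6h at 39.1% to Opn1mw at 57.2%. Calls came from a limma fit over 16110 genes and needed a log2 fold change beyond 0.5 in size with a Benjamini-Hochberg adjusted p under 0.05. Of all these genes 36.8% were called lower, and their median log2 fold change was -0.11. In KO the picture was alike, with 9 of 10 called lower against 36.5% of 16121 genes, and a median at 54.7% of retina (log2 fold change -0.87, beside -0.02 for all genes). These percentages compare RNA from a pull-down with RNA of whole retina and do not measure numbers of cones. In bulk RNA such as that of retina, fewer cells of a type and less RNA per cell cannot be told apart. The sum of the 10 genes was 0.108% to 0.133% of all values in retina and 0.0344% to 0.0533% in rod TRAP.

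**Figure D1:**
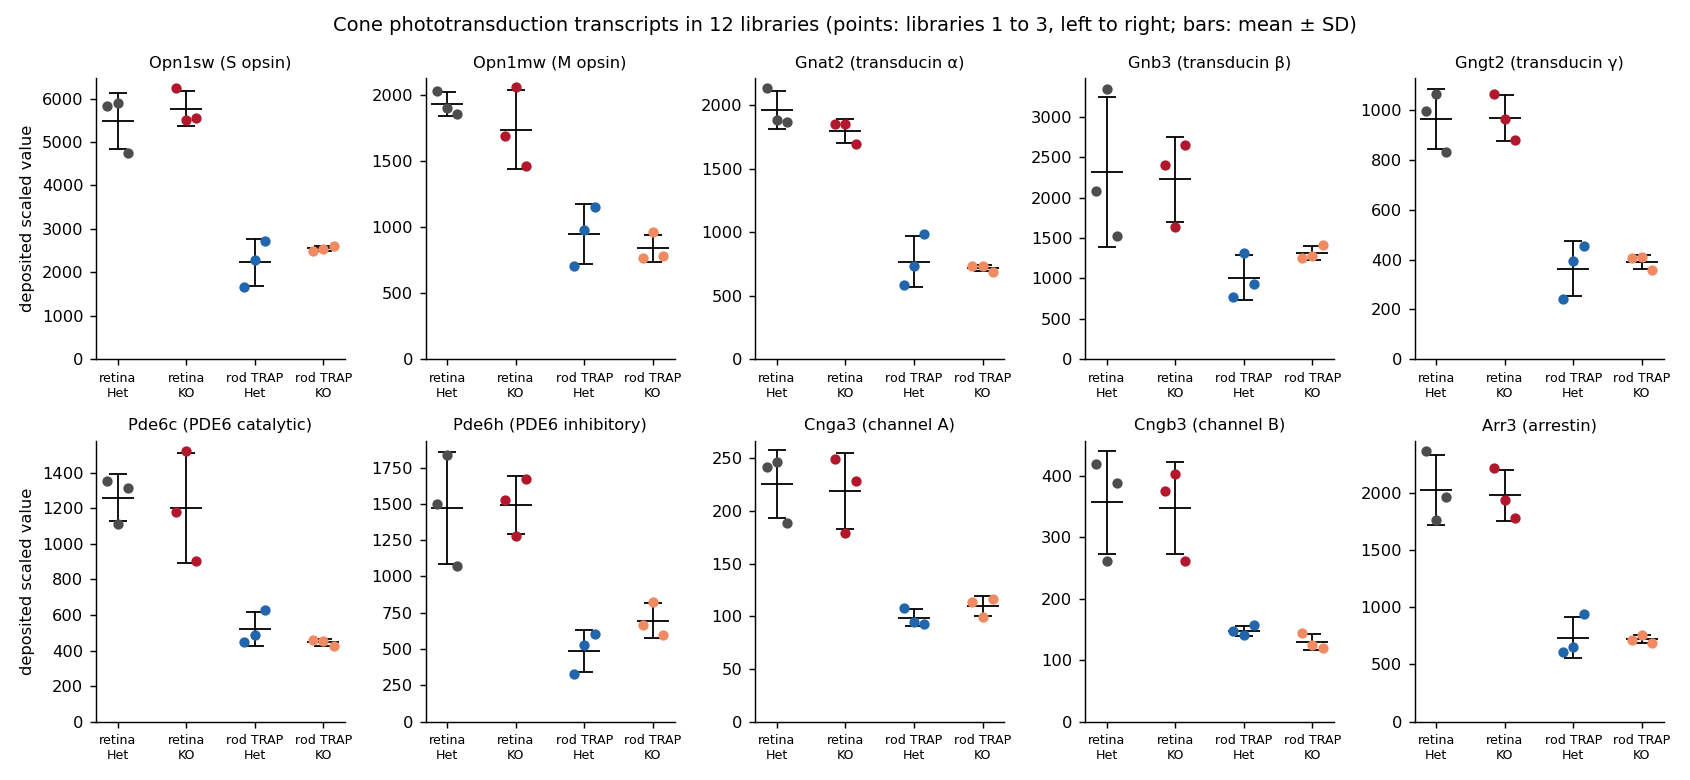
Deposited scaled value (vertical axes, linear, starting at 0) of each of the 10 cone phototransduction transcripts in the 12 libraries. Points are libraries, replicates 1 to 3 from left to right within each of the 4 groups, bars are the mean ± SD (n = 3), and for all 10 genes the rod TRAP points lie below every retina point of the same genotype.

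The opsins are the light receptors. Opn1sw, the short-wavelength (S) opsin on chromosome 6, had values of 5830, 5898 and 4744 in Het retina and 1657, 2290 and 2730 in Het rod TRAP. In KO they were 6234, 5509 and 5563 in retina and 2497, 2536 and 2612 in rod TRAP. The fractions did not overlap in either genotype, and the log2 fold change was -1.08 ± 0.19 (adjusted p = 0.0011) in Het and -0.81 ± 0.10 (adjusted p = 0.00014) in KO. Opn1mw, the medium-wavelength (M) opsin on chromosome X, read 2030, 1903 and 1858 in Het retina and 706, 980 and 1153 in Het rod TRAP. The KO values of Opn1mw were 1692, 2058 and 1464 in retina and 769, 959 and 784 in rod TRAP. Its log2 fold changes, -0.81 ± 0.18 in Het and -0.67 ± 0.15 in KO, were the smallest fall of the 10 genes in Het and the third smallest in KO.

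Transducin was measured in all 3 subunits. Gnat2, the cone α subunit on chromosome 3, had 2133, 1885 and 1870 in Het retina and 584, 731 and 983 in Het rod TRAP, and 1849, 1853 and 1691 in KO retina and 736, 730 and 688 in KO rod TRAP. Its log2 fold change was -1.14 ± 0.19 in Het and -0.95 ± 0.10 in KO, with no overlap of the fractions. Gngt2, the cone γ subunit on chromosome 11, stood at 997, 1067 and 831 in Het retina, 241, 394 and 455 in Het rod TRAP, 1066, 965 and 882 in KO retina and 405, 409 and 358 in KO rod TRAP. It fell by about as much as Gnat2, with -1.20 ± 0.24 in Het and -0.94 ± 0.12 in KO. Gnb3, the β subunit on chromosome 6, which ON bipolar cells also use, was the exception. It had 2086, 3347 and 1524 in Het retina and 775, 1316 and 928 in Het rod TRAP, and 2400, 1631 and 2648 in KO retina and 1253, 1277 and 1419 in KO rod TRAP. As deposited its fractions were separate, and after TMM scaling between libraries they overlapped in both genotypes. It was called in Het (-0.91 ± 0.30, adjusted p = 0.025) and not in KO (-0.36 ± 0.19, adjusted p = 0.12). The Het call of Gnb3 was lost without rod TRAP Het replicate 1 (-0.73, adjusted p = 0.097) or replicate 3 (-0.87, adjusted p = 0.076), and in KO it was called without whole retina KO replicate 2 (-0.76, adjusted p = 0.00075).

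PDE6 splits cyclic GMP. The cone catalytic subunit Pde6c, on chromosome 19, had values of 1353, 1111 and 1316 in Het retina and 448, 485 and 631 in Het rod TRAP, and of 1181, 1523 and 906 in KO retina and 458, 456 and 425 in KO rod TRAP. Its log2 fold change was -1.03 in both genotypes, with an SE of 0.16 in Het and 0.17 in KO. The inhibitory subunit Pde6h, on chromosome 6, had 1502, 1839 and 1073 in Het retina, 326, 530 and 606 in Het rod TRAP, 1527, 1280 and 1669 in KO retina and 665, 827 and 595 in KO rod TRAP. It showed the largest fall of the 10 in Het, -1.36 ± 0.27, and a fall of -0.73 ± 0.16 in KO.

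The channel subunits had the lowest values. Cnga3, on chromosome 1, read 242, 246 and 188 in Het retina and 108, 95 and 93 in Het rod TRAP, and 249, 179 and 228 in KO retina and 114, 99 and 116 in KO rod TRAP. Cngb3, on chromosome 4, read 420, 262 and 388 in Het retina and 147, 141 and 157 in Het rod TRAP, and 376, 403 and 262 in KO retina and 144, 124 and 120 in KO rod TRAP. Neither overlapped between fractions. Cnga3 changed by -0.92 ± 0.19 in Het and -0.61 ± 0.19 in KO (adjusted p = 0.021), and the KO call was lost without rod TRAP KO replicate 2 (-0.52, adjusted p = 0.075). Cngb3 changed by -0.98 ± 0.20 and -1.02 ± 0.19. Arr3, the arrestin that binds activated cone opsins, on chromosome X, had 2359, 1759 and 1958 in Het retina and 608, 653 and 936 in Het rod TRAP, and 2219, 1937 and 1777 in KO retina and 717, 759 and 688 in KO rod TRAP. It fell by 1.23 ± 0.18 on the log2 scale in Het and 1.08 ± 0.11 in KO, the largest fall of the 10 in KO.

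After TMM scaling, the rod TRAP values did not overlap the retina values for 9 of 10 cone genes in Het, against 40.0% of all genes tested, and for 9 of 10 in KO, against 39.4%. Gnb3 was the exception in both. Within Het rod TRAP the 3 libraries were not alike for these genes: replicate 1 was the lowest in 8 of 10 and replicate 3 the highest in 8 of 10, and the sum of the 10 genes was 0.0344%, 0.0468% and 0.0533% in replicates 1, 2 and 3. Without replicate 1 the members' median log2 fold change was -0.93 and 9 were called lower, against 35.3% of all genes. In KO rod TRAP the sums were closer, at 0.0477%, 0.0503% and 0.048%. Over all 12 libraries, deviations from the group means correlated with a median r of 0.44 over the 45 pairs of genes, from -0.78 for Gnb3 and Cngb3 to 0.93 for Opn1sw and Gngt2. These r are a description of 12 libraries that share their scaling.

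By list medians, markers of other cells fell much further than the cone transcripts. The medians in Het rod TRAP against Het retina were 2.74% of retina for 12 bipolar genes, 3.38% for 11 Muller glia genes, 3.38% for 9 amacrine genes, 2.93% for 9 ganglion cell genes, 8.25% for 6 horizontal cell genes, 5.89% for 7 microglia genes, 8.52% for 8 endothelial genes and 10.7% for 7 genes of the retinal pigment epithelium. In the microglia list 7 of 7 genes had a mean below 10 in Het rod TRAP, as did 5 of 6 horizontal and 5 of 8 endothelial genes, so the pseudocount of 2 raises these percentages. From the group means without it, the medians were 1.85% for microglia, 3.44% for horizontal cells and 3.51% for endothelium. Of these 69 tested genes in 8 lists, 67 had a lower log2 fold change than the lowest cone member, against 29.7% of all 16110 genes. The exceptions were Prkca and Pecam1. Genes with a mean below 10 in rod TRAP passed the filter mainly through their retina values. The filter thus favoured a low position for them, so such counts are a description and not a test. In KO, 66 of 68 genes lay below the lowest cone member, with the same exceptions, and no share of all genes was taken. The distance was uneven: the highest amacrine gene was at -1.17 in KO, beside -1.08 for the lowest cone member. Of the 8 pigment epithelium genes, 2 were called lower in KO, against 36.5% of all genes. Their sum ran from 0.00271% to 0.0686% of the KO retina libraries. The bipolar cation channel Trpm1 was at 2.49% of retina in Het, the Muller glutamine synthetase Glul at 5.11%, the calcium-binding protein gene Calb2 of amacrine cells at 2.13%, the neurofilament Nefl of ganglion cells at 2.93%, the calcium buffer Calb1 of horizontal cells at 2.83% and the endothelial VEGF receptor Kdr at 2.88%. None of the 90 marker genes of other cells, other cone genes and lens was at 0 in all 6 rod TRAP libraries. In sum, the Muller list made up 0.382% to 0.605% of retina and 0.0135% to 0.0228% of rod TRAP, and the bipolar list 0.136% to 0.149% and 0.022% to 0.0335%. The bipolar sum in rod TRAP was mostly Prkca (log2 fold change 0.01 ± 0.16 in Het), and without it the list made up 0.101% to 0.113% of retina and 0.00188% to 0.00376% of rod TRAP. No test was run between lists, and the part that RNA of other cells plays in the rod TRAP values was not tested.

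**Figure D2:**
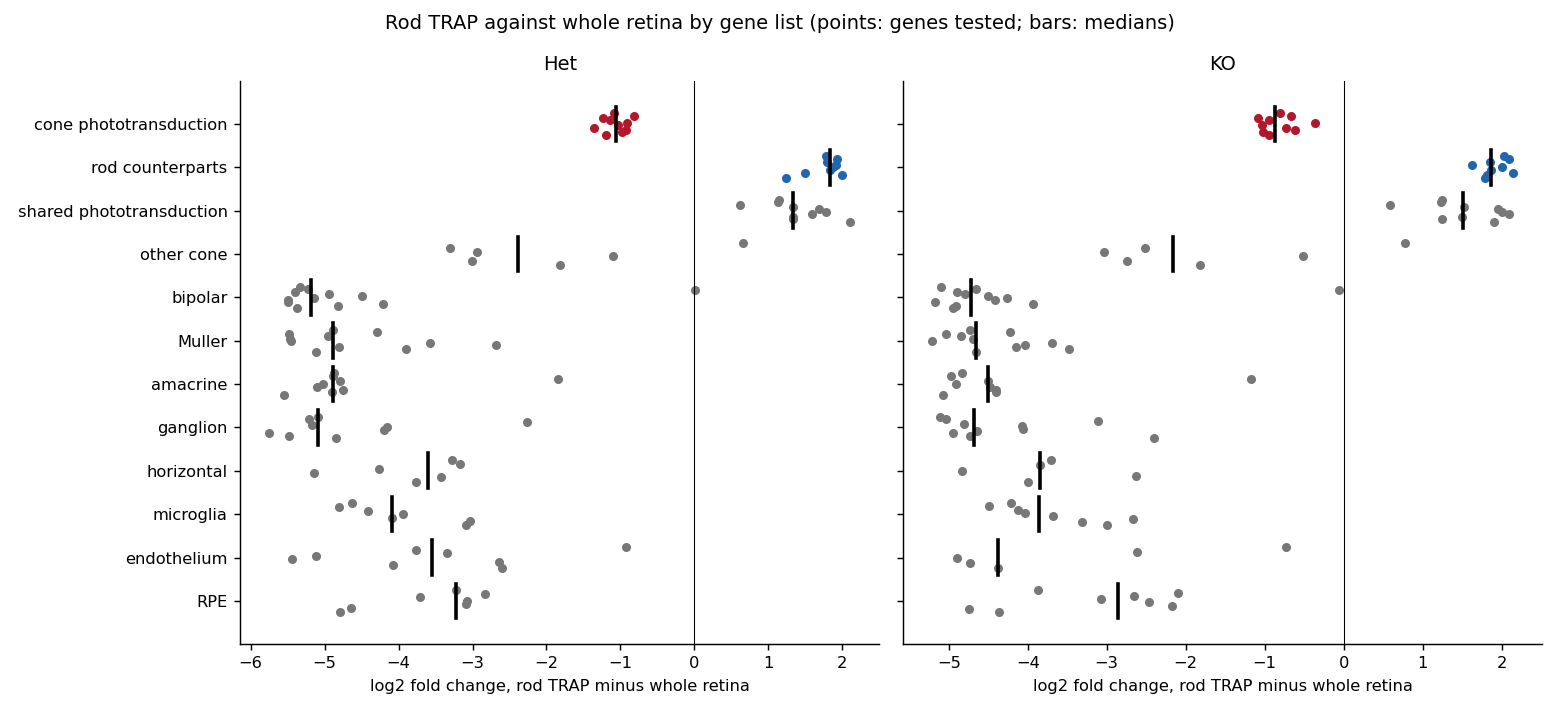
Log2 fold change of rod TRAP against whole retina (horizontal axis) for each gene tested in 12 lists (rows), in Het at left and KO at right. Points are genes and bars list medians, the lens list is not drawn, and the cone phototransduction genes lie between -1.36 and -0.81 in Het and between -1.08 and -0.36 in KO, left of the rod counterparts and right of the medians of the bipolar, Muller, amacrine and ganglion cell lists (Prkca in the bipolar row, at 0.01 in Het, lies to their right).

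A further 6 genes known from cones spread more widely. Their median was 19.2% of retina in Het, with 5 of 6 called lower and 1 called higher. Of all 16110 genes, 36.8% were called lower and 3453 genes were called higher. Slc24a2, the cone sodium, calcium and potassium exchanger, was at 13% of retina (log2 fold change -2.94 ± 0.16), Ccdc136 at 12.4% (-3.01 ± 0.16) and Rxrg, a retinoid receptor that acts in opsin choice, at 10.2% (-3.30 ± 0.39). Thrb, the thyroid hormone receptor that sets M opsin expression, was higher in rod TRAP, at 159% of retina (0.66 ± 0.15, adjusted p = 0.0038). The remaining genes, named after their values were seen, were Sall3 at 28.3% (-1.82 ± 0.36) and Otop3 at 46.7% (-1.10 ± 0.33), which lay within the range of the 10 cone genes. In KO, Otop3 was at 70.4% (-0.51 ± 0.40, adjusted p = 0.29) and Sall3 at 28.2%, Slc24a2 was at 12.1%, Ccdc136 at 15%, Rxrg at 17.6% and Thrb at 172%. These genes are also expressed outside cones, and their source in the retina was not tested.

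The rod counterparts moved the opposite way. All 9 were called higher in Het and in KO, with medians of 357% and 364% of retina. Over all genes tested, 3453 of 16110 were called higher in Het and 4146 of 16121 in KO. Cnga1, the rod channel subunit, was at 400% of retina in Het (2.00 ± 0.16). The 10 genes that rods and cones share for shutoff and calcium feedback were also all called higher in both genotypes, with a median of 252% in Het. Among them Pdc, phosducin, was at 431%, Guca1b, which activates guanylate cyclase, at 300%, the opsin kinase gene Grk1 at 222% and Rgs9bp, the anchor of the transducin shutoff complex, at 154%.

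The ratio of a cone gene to its rod counterpart within 1 library does not depend on the scaling between libraries. For Gnat2 over Gnat1, the log2 ratio was -5.87, -6.15 and -5.76 in Het retina and -9.25, -9.06 and -8.66 in Het rod TRAP. The difference of -3.06 ± 0.21 (SE) is an 8.37-fold lower ratio, and in KO it was 8.32-fold lower (-3.06 ± 0.05). For Pde6h over Pde6g the ratio was 7.25-fold lower in Het and 7.37-fold lower in KO, and for Arr3 over Sag 8.06-fold and 8.60-fold. Over all 9 pairs the ratio was 4.70-fold to 8.74-fold lower in Het and 4.62-fold to 8.60-fold lower in KO. The 3 rod TRAP ratios lay below the 3 retina ratios in 9 of 9 pairs in both genotypes. This count restates the falls of the cone genes and the rises of the rod genes given above, and is not separate evidence. Pde6c enters with both Pde6a and Pde6b, and no share over other gene pairs was taken. With 3 libraries against 3, the exact two-sided permutation test of 1 pair can give no p below 0.1, so no single pair can pass 0.05. The smallest shifts were Cngb3 over Cngb1 in Het (4.70-fold, -2.23 ± 0.41) and Gnb3 over Gnb1 in KO (4.62-fold, -2.21 ± 0.27).

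**Figure D3:**
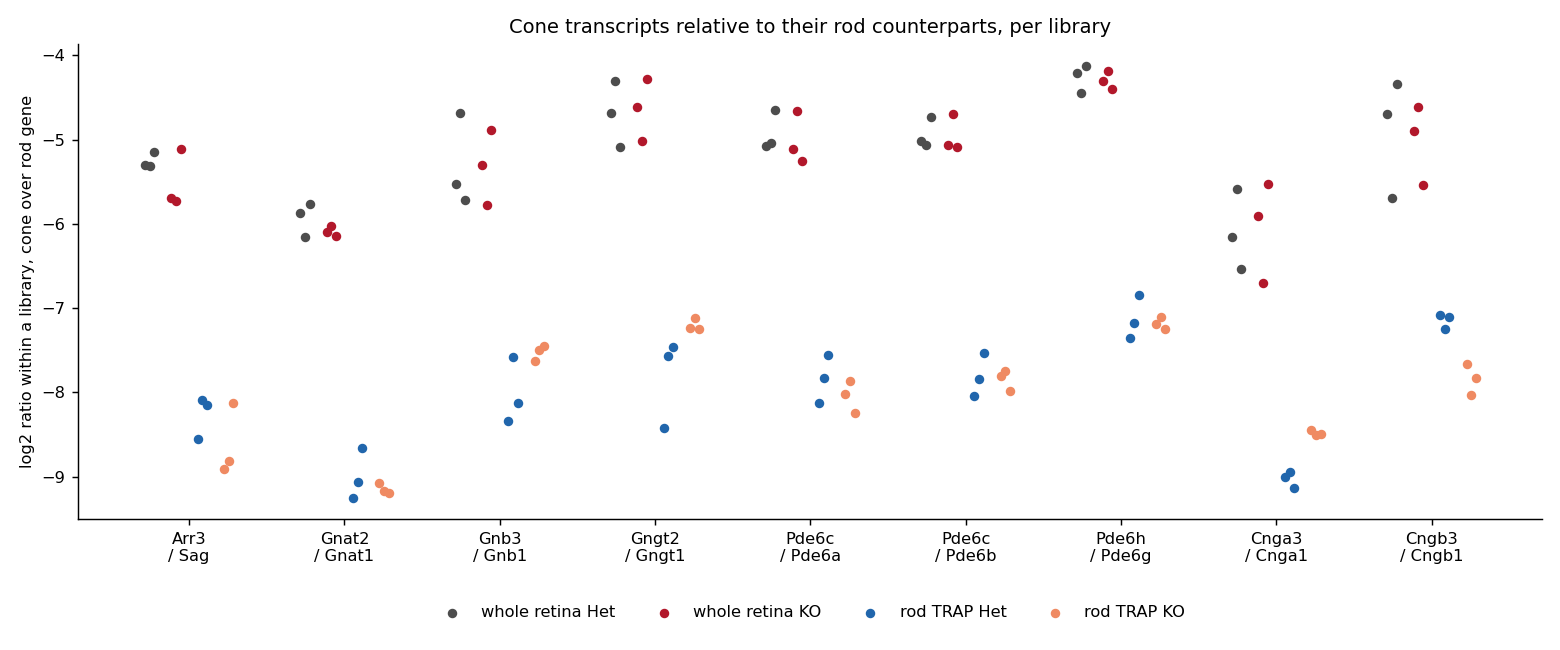
Log2 ratio of each cone gene to its rod counterpart within a library (vertical axis) for 9 pairs (horizontal axis). Points are the 12 libraries, coloured by group, and in every pair the rod TRAP points lie below all retina points, as for Gnat2 over Gnat1 at -9.25 to -8.66 against -6.15 to -5.76.

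The loss of Shp2 in rods was compared next. In KO rod TRAP against Het rod TRAP, 0 of 10 cone genes were called, against 13.1% of 13055 genes. Before adjustment, the p of 1 of them (Gnb3) was under 0.05. The median log2 fold change was 0.14, beside -0.03 for all genes. The groups of 0 of the 10 genes were free of overlap, against 44.8% of all genes. The largest differences were Pde6h, 0.61 ± 0.26 (95% interval -0.02 to 1.24, adjusted p = 0.14), and Gnb3, 0.49 ± 0.18 (0.07 to 0.90, adjusted p = 0.082). Gnb3 was called when rod TRAP Het replicate 2 was left out (0.71, adjusted p = 0.0033), the only such call among the settings tried. Of the others, Opn1sw was at 0.29 ± 0.17 (-0.11 to 0.69), Gnat2 at 0.00 ± 0.17 (-0.39 to 0.40), Pde6c at -0.14 ± 0.13 (-0.43 to 0.15) and Opn1mw at -0.09 ± 0.19 (-0.53 to 0.36). The intervals leave room for changes of this size and do not show equal levels.

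In whole retina, where the cones themselves are present, no cone gene was called between the genotypes either. In KO retina against Het retina 0 of 10 were called, as were 0% of 16863 genes (140 of them at an unadjusted p below 0.05), and none of the 10 had an unadjusted p under 0.05. The log2 fold changes ran from -0.16 (Opn1mw, 95% interval -0.50 to 0.18) to 0.08 (Opn1sw, -0.23 to 0.39). The interval was widest for Gnb3, -0.73 to 0.71, and narrow for Gnat2, -0.40 to 0.16. As in rod TRAP, such intervals do not show equal levels. Gnat2 was the only one of the 10 whose groups did not overlap after scaling, with 1799 ± 41 in KO and 1958 ± 104 in Het (SD, n = 3), against 3.52% of all genes. As a direct test, the difference between the fraction effects of KO and Het was called for 0 of 10 genes and for 0% of 17192 genes (602 of them at an unadjusted p below 0.05). It was largest for Pde6h, 0.47 ± 0.33 (-0.25 to 1.20, adjusted p = 0.8), and Gnb3, 0.41 ± 0.38 (-0.42 to 1.23, adjusted p = 0.81).

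**Figure D4:**
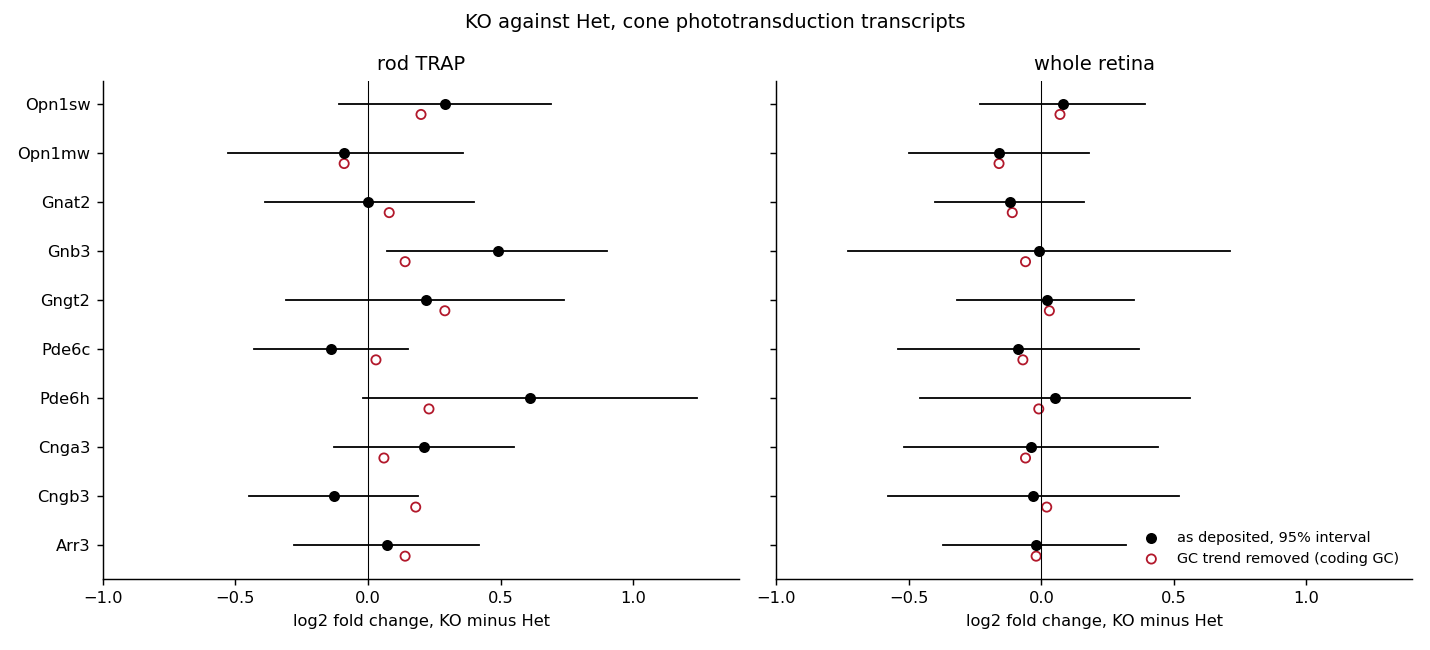
Log2 fold change of KO against Het (horizontal axes) of the 10 cone phototransduction genes in rod TRAP (left) and whole retina (right). Filled points and lines are the fit and its 95% interval, and open circles are the fit after the GC trend of each library was removed with the GC content of the coding sequence, where Pde6h moves from 0.61 to 0.23 and Gnb3 from 0.49 to 0.14 in rod TRAP (0.84 and 0.05 by transcript GC, not drawn).

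The libraries differed in how GC-rich genes stood against GC-poor ones, and these values moved with some cone genes. The log2 difference between the 10% of genes richest and poorest in GC was -0.769, -0.218 and -0.394 in Het rod TRAP and 0.408, 0.702 and 0.271 in KO rod TRAP, so the genotypes did not overlap. In rod TRAP, GC trend and genotype therefore cannot be told apart, and removing the trend may also remove a genotype difference. In retina the GC difference ran from -0.833 to 0.853 in Het and from -0.629 to 0.895 in KO. By the longest transcript, Gnb3 has the highest GC content of the 10 genes (56.9%) and Cngb3 the lowest (39.9%). By coding sequence Gnb3 has 55.8%, below Pde6h, and Cngb3 is again the lowest (42.6%). In retina Gnb3 was highest where the GC difference was highest, in Het replicate 2 (3347) and KO replicate 3 (2648), and lowest where it was lowest, in Het replicate 3 (1524) and KO replicate 2 (1631). Cngb3 read 262 in Het replicate 2 and 262 in KO replicate 3, its lowest retina values. Pde6h has a coding GC content of 56.3%, whereas the longest transcript in the annotation has 46.2%. With each library's trend removed by the GC content of the longest transcript, the rod TRAP difference of Gnb3 was 0.05 ± 0.14 and that of Pde6h 0.84 ± 0.35. With coding GC for the 10 genes, an alternative chosen after the data were seen, they were 0.14 ± 0.14 and 0.23 ± 0.20. For Pde6h the result therefore depends on which GC content is used, and neither value was called. In retina the SE of Gnb3 went from 0.31 to 0.12 by transcript GC and to 0.15 by coding GC, and that of Pde6h went from 0.22 to 0.34 and to 0.09. The fraction differences stayed, with 10 of 10 called lower in Het and 9 of 10 in KO, against 38.1% and 37% of all genes.

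**Figure D5:**
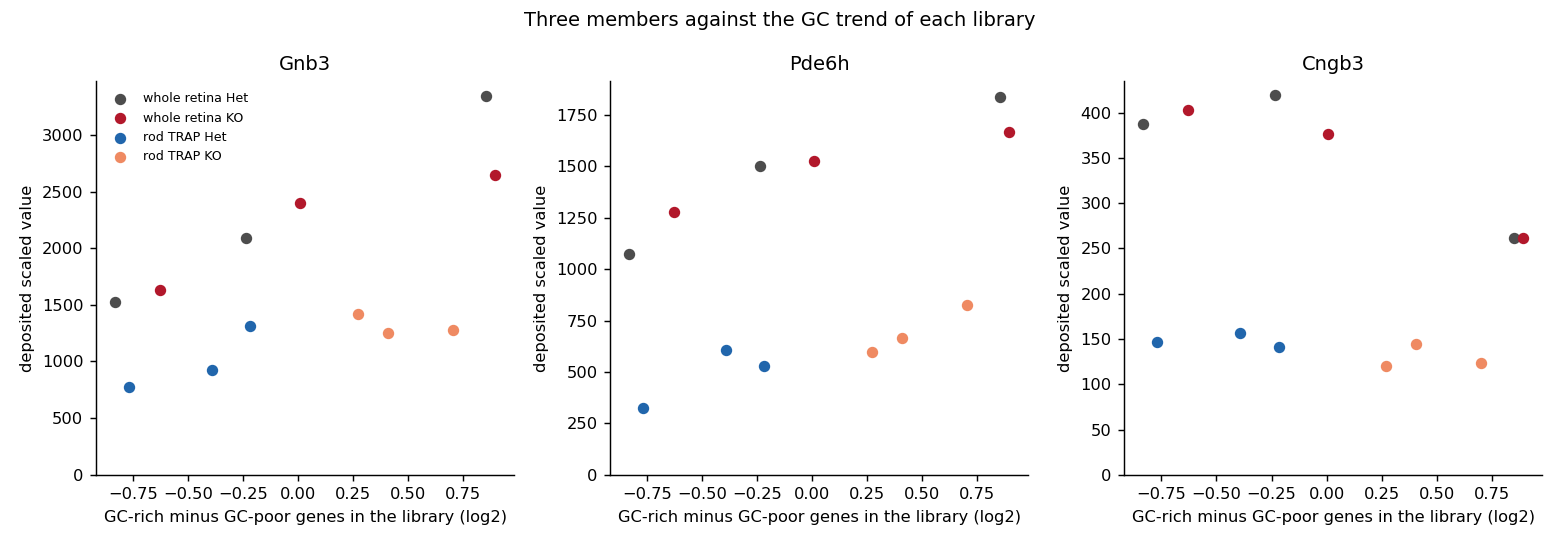
Deposited scaled value (vertical axes, starting at 0) of Gnb3, Pde6h and Cngb3 against the log2 difference between the 10% of genes richest and poorest in GC in each of the 12 libraries (horizontal axis, relative to the mean of the fraction). Points are libraries coloured by group, and in retina Gnb3 and Pde6h are highest in the libraries with the highest GC difference and Cngb3 is lowest there, and Het and KO rod TRAP lie on opposite sides of 0.

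Ratios between cone genes of the same complex, and between the opsins, were followed as well, as ratios of values that also depend on transcript length. Opn1sw over Opn1mw was 2.87, 3.10 and 2.55 in Het retina, 3.68, 2.68 and 3.80 in KO retina, 2.35, 2.34 and 2.37 in Het rod TRAP and 3.25, 2.64 and 3.33 in KO rod TRAP. The Het rod TRAP ratios were below all others, and the KO minus Het difference in rod TRAP was 0.38 ± 0.11 on the log2 scale, with an exact permutation p of 0.1, the smallest that 3 against 3 can give. The difference was 0.76 ± 0.21 for Pde6h over Pde6c and -0.35 ± 0.13 for Cngb3 over Cnga3, also without overlap. With the GC trend removed by transcript GC and by coding GC, these differences were 0.80 and 0.20 for Pde6h over Pde6c, -0.02 and 0.12 for Cngb3 over Cnga3, and 0.50 and 0.29 for Opn1sw over Opn1mw, so the sign for the channel subunits turned with coding GC. In rod TRAP, 3 of the 5 ratios between cone genes (the opsin ratio among them) did not overlap between the genotypes. The same held for 3 of the 9 ratios of cone to rod genes, beside 44.8% of single genes, and in retina for 0 of either. That share counts single genes after TMM scaling, so it is not a like background for ratios. The 3 cone to rod pairs were Gngt2 over Gngt1 (0.61 ± 0.31), Cnga3 over Cnga1 (0.55 ± 0.06) and Cngb3 over Cngb1 (-0.70 ± 0.12). Their GC contents by the longest transcript, cone gene first, were 52.5% and 35.8%, 51.1% and 42.6%, and 39.9% and 53.9%. No GC correction was applied to these pairs, and whether GC content bears on their ratios was not tested. Pde6h over Pde6g was not among them (-0.06 ± 0.16), and Pde6g itself was called higher in KO rod TRAP (0.67 ± 0.15, adjusted p = 0.02), as was Cngb1 (0.56 ± 0.09, adjusted p = 0.0033), though in 1 fit over all 12 libraries no gene was called in this comparison, at 3135 genes with an unadjusted p under 0.05. The GC content of Pde6g is 55.8% and that of Cngb1 53.9%. Whether GC content bears on these calls was not tested.

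The sequence upstream of the cone genes was also read, since photoreceptor genes carry binding motifs for the homeodomain factor Crx. RefSeq windows of 300 bases around the start site were at hand for 6 of the 10 genes. TAATCC, or GGATTA on the other strand, the core of the Crx motif, stood in 1 of these 6 (Gnat2) and in 4 of 6 rod counterparts (Cnga1, Cngb1, Gngt1 and Sag), against 7.06% of 32817 windows. CAATTA, or TAATTG, a homeodomain core, stood in 2 of 6 (Gnat2 and Opn1mw) and in 2 of 6 rod counterparts (Cngb1 and Sag), against 8% of windows. The 250 bases upstream of Gnat2 (chr3:108092816-108093065, + strand, GRCm38.p6) and of Opn1mw (chrX:74127216-74127465, + strand) are given with these matches in capitals. A match is a description of the letters and not a bound site.
Gnat2: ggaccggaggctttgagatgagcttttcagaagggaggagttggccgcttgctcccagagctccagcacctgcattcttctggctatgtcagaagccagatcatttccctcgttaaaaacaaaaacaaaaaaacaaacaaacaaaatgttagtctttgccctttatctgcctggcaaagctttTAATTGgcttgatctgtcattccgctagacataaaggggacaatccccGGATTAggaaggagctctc
Opn1mw: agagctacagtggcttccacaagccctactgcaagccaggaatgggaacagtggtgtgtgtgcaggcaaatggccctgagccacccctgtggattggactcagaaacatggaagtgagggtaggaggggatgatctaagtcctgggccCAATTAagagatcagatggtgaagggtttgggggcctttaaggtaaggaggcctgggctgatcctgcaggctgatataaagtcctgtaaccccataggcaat

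The genes most like the cone set in pattern were found by the Pearson correlation, over the 12 libraries, with the mean of the 10 centred profiles. Among 12853 genes the 5 highest were Rnf19b and Trio (r = 0.988), Pdxp (0.987), and Npr2 and Ret (0.986). The value of r takes no account of size, and these 5 fell further than the cone genes. Ret, a receptor tyrosine kinase, changed by -5.41 ± 0.40 in Het, and Pdxp by -2.74 ± 0.26. The points share the split into fractions, so these r describe that split. Of the 16110 genes tested in Het, 5.61% had a log2 fold change within the range of the 10 cone genes and 29.7% a lower one.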

How the data were processed

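RNA of 12 libraries (4 groups of 3) was sequenced. The authors deposited 1 table of scores: whole numbers per gene, which are scaled read counts, since totals within a fraction are nearly equal; that scaling step is inferred. The submitters' processing notes name CASAVA 1.8.2, HISAT2, DESeq2, edgeR and GRCm39, and the counting tool and strand are not given in the sources used here. The table held 0 columns of other samples. Groups and replicate numbers came from the labels.

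Values were scaled by TMM factors, raised by a pseudocount of 2 and put on a log2 scale. Genes needed a value of 10 in 3 libraries and a sum of 15. limma 3.58.1 (R 4.3.3, trend and robust) was fitted to the groups compared only, with Benjamini-Hochberg adjustment over all genes, and to all 12 libraries for the interaction. Fold changes are on the log2(value + 2) scale. The fit was tested on simulated data with 200 changed genes, the same factor in every library and no GC trend. That test does not cover a GC trend that differs between genotypes, or changes in a large share of genes. Library factors, and so depths, were estimated from low values; 1 of them, 0.994 in retina of Het replicate 3, was indistinguishable from 1, and intervals and floors cover counting error only. GC content came from the longest GENCODE transcript (GRCm38) and was known for 98.3% to 98.9% of genes. Python 3.11.15 and matplotlib 3.10.9 were also used.

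The 10 members, the other lists and the tests were chosen with earlier results of these data known. Named genes are the 10 members, the 9 rod counterparts used, at most the 4 highest of each other list in Het retina, and the 5 most like the members in pattern. Same-numbered Het libraries of rod TRAP and retina deviated together (r 0.24 to 0.43, other numbers -0.34 to 0.01), so numbers pair those fractions by the data, with no statement in the labels. The alternatives were other scalings, pseudocounts and filters, a replicate block, GC correction, 1 fit over 12 libraries and each library left out. Some marker genes are not reported here.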

Additional observations from a re-analysis of the deposited data

How the results depend on the processing

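Between rod TRAP and retina, the number of cone genes called lower in Het was 9 without a filter on low values and 9 to 10 with single libraries left out, and 10 otherwise, while in KO it was 10 with scaling by library size, 8 to 10 with single libraries left out, and 9 otherwise. The call that moved was that of Gnb3, apart from Cnga3 in KO without rod TRAP KO replicate 2. Of all genes, 36.8% in Het and 36.5% in KO were called lower in the main fit. With scaling by library size these shares were 45.9% and 48.7%, and without a filter 30% and 28.8%. They were 23.2% to 35.6% in Het and 25.2% to 35.6% in KO with single libraries left out. Between genotypes the number of cone genes called in rod TRAP was 0 to 1 with single libraries left out (1, Gnb3, without rod TRAP Het replicate 2) and 0 under the other alternatives, and it was 0 throughout in retina and for the difference between fraction effects. No called member changed sign. Scaling by library size moved the median of all genes by -0.40 in Het and -0.52 in KO, so the members' medians were 36.2% and 37.8% of retina on that scale, and genes called higher made up 13.6% of all calls in Het instead of 36.8%, and 12.7% instead of 41.3% in KO. The genes called in rod TRAP numbered 1711, 370 with the GC trend removed and 0 in 1 fit over 12 libraries (3135 at an unadjusted p below 0.05). With the replicate block, 10 cone genes were called in Het, 9 in KO, and 0 in each of the other comparisons, so the pairing changed no count. Of all genes, 38.2% in Het and 36.4% in KO were called lower with that block. Same-numbered libraries did not all deviate together in the KO fractions (r 0.02 to 0.30) or between genotypes (0.02 to 0.10 in rod TRAP, -0.58 to 0.39 in retina). Counting error at the lowest value of a cone gene was at most 11% (Cnga3).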
